A study of Drosophila melanogaster with 12 samples.

Results

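The genes described here belong to the structural cuticle protein families of *Drosophila melanogaster*, and were chosen by transcript name. Names that begin with Cpr, Lcp, Ccp84, Twdl or Edg gave 116 of the 15448 transcripts in the count table, with 68 Cpr, 15 Lcp, 7 Ccp84, 23 Twdl and 3 Edg members. Adult females of a large outbred laboratory population were reared on 4 isocaloric diets in which sugar and yeast were exchanged, so that the protein to carbohydrate (P:C) ratio was 0.25, 0.4, 0.55 or 0.7. The 0.4 diet is the food on which the population is kept and served as the control. Whole females were pooled, 12 for a sample, and polyadenylated RNA was sequenced in 3 samples per diet, described as independent biological replicates. Sample totals lay between 6094226 and 13245114 counts.

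The cuticle of an insect is a layered sheet of chitin and proteins secreted by the epidermis and by the linings of the tracheae, foregut and hindgut. Cpr proteins carry the Rebers and Riddiford consensus, a stretch that binds chitin, and the Lcp (larval cuticle protein) and Ccp84 proteins and some Edg proteins belong to the same large family. Tweedle (Twdl) proteins form a separate insect family that takes its name from a mutant with short, stout larvae. Each stage builds its cuticle from its own subset of these genes, and a new adult goes on adding inner layers in the days after eclosion before this secretion slows down.

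All flies were frozen on day 13 post egg collection, which fixes the time since the egg and not the time since eclosion. The adult age of the flies is not in the sample labels. Where development takes longer, the adult is younger at freezing, so the diet and the adult age at sampling cannot be told apart in any comparison below. In whole-body RNA, fewer cuticle-secreting cells and less of a transcript per cell also cannot be told apart.

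Of the 116 members, 26 had no count in any sample and 16 had some counts but fewer than 3 in every sample. A sum of 3 counts was taken as the smallest number that shows a transcript, and it covers counting error only. The other 74 members reached it in at least 1 sample, namely 47 Cpr, 16 Twdl, 6 Ccp84, 4 Lcp and 1 Edg member. Only 18 reached it in all 12 samples. The members reaching 3 counts numbered 37, 27 and 33 in the P:C 0.25 samples, 24, 27 and 55 in the P:C 0.4 samples, 29, 24 and 22 in the P:C 0.55 samples and 49, 55 and 45 in the P:C 0.7 samples. P:C 0.4 replicate 3 thus stood apart from the other samples of its diet, and 31 members reached 3 counts in it and in neither other P:C 0.4 sample. Of those 31, 29 also reached 3 counts in a P:C 0.7 sample, 6 in a P:C 0.25 sample and 1 in a P:C 0.55 sample. How many of all transcripts behave alike in this library was not counted. Results that rest on this library are given with and without it.

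**Figure D1:**
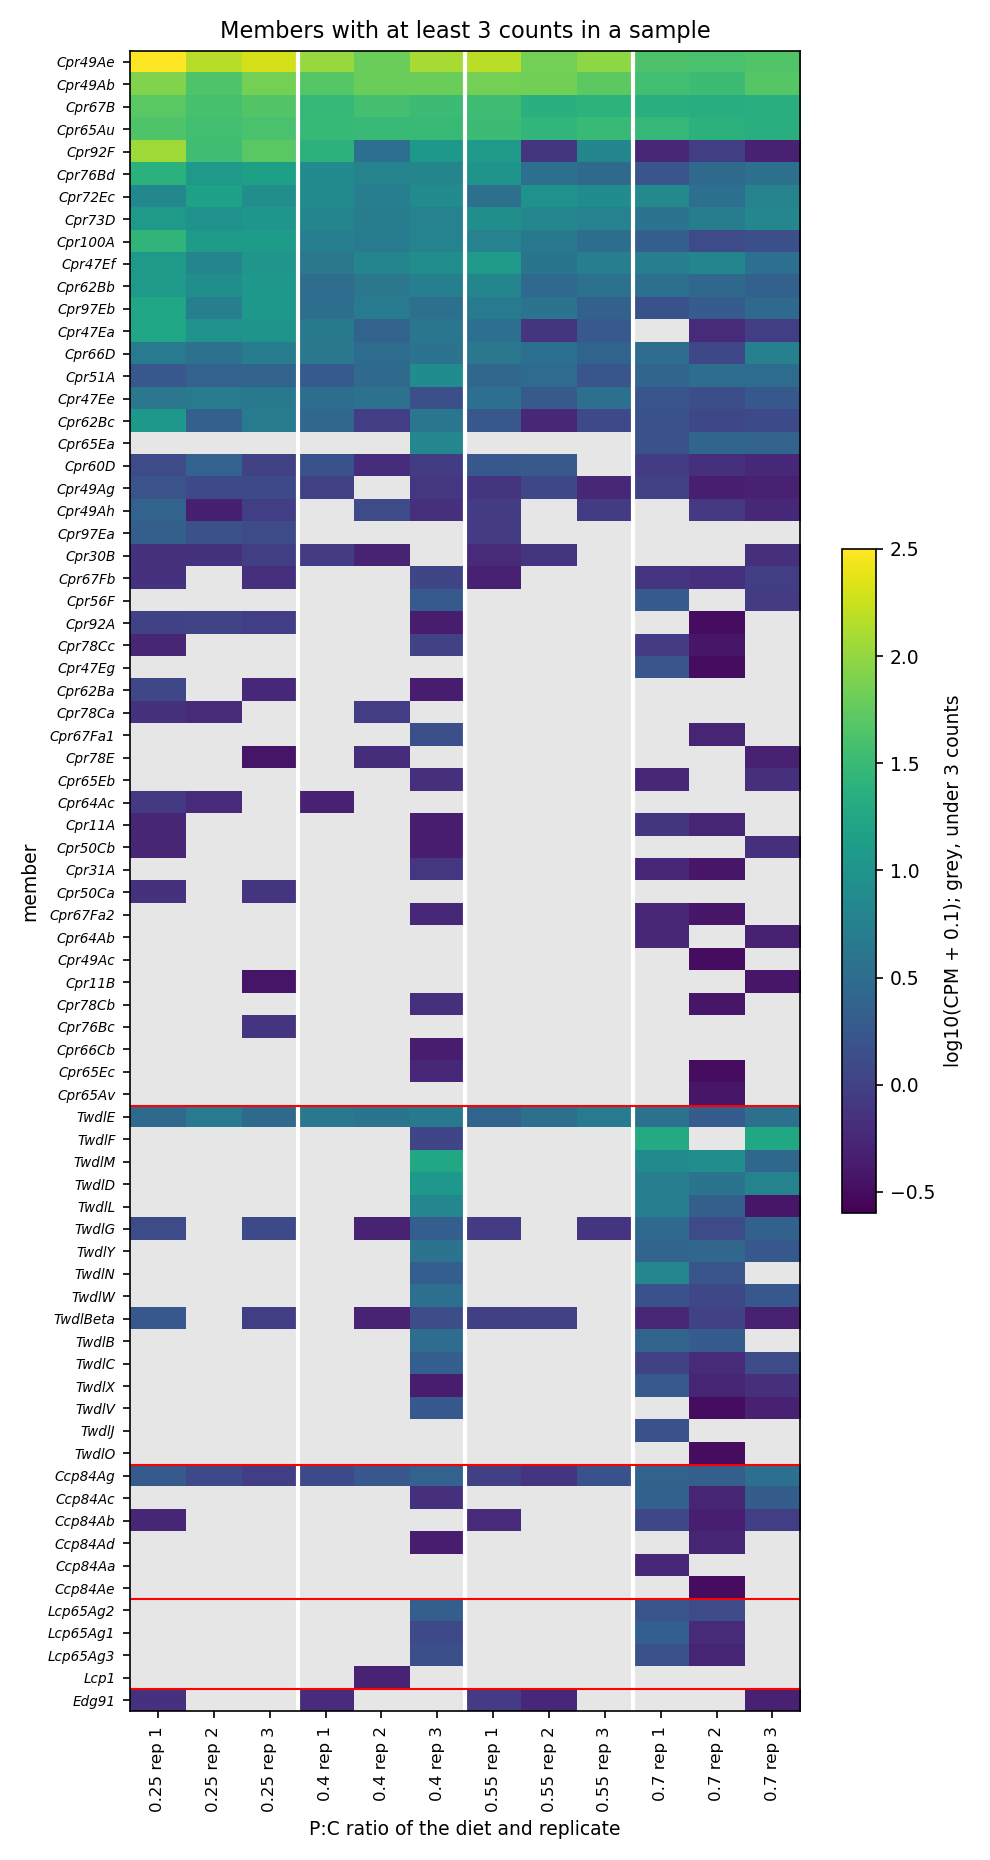
Levels of the 74 members with at least 3 counts in a sample, one line per member and one column per sample, with diets in order of P:C ratio and red lines between the Cpr, Twdl, Ccp84, Lcp and Edg members. Colour is log10 of the level in CPM plus 0.1, and grey marks fewer than 3 counts. A band of Cpr members at the top is seen in every sample, and most Twdl members are coloured only in P:C 0.4 replicate 3 and in the P:C 0.7 samples.

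Many members lie side by side in the genome (coordinates on BDGP6, as the count table gives them). A run of 17 members, Lcp65A and Cpr65A genes, lies on chromosome 3L between 6130386 and 6161589, and 5 of them reached 3 counts. On 3R, 12 Twdl members lie between 26619118 and 26641054, of which 7 reached 3 counts, and Edg84A with the 7 Ccp84 members lies between 6684445 and 6704903, of which 6 reached 3 counts. Another transcript of the table overlaps 15 of the 116 members. Whether counting used the strand is not stated, so reads of such a pair cannot be told apart. Among the members named below this holds for Cpr47Ea (which overlaps Or47a), Cpr51A (CG30197), TwdlE (lectin-28C), TwdlY (CG9634) and Cpr73D (Nc73EF and Obp73a).

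The members in sum took 775, 411 and 528 CPM (the usual per-library unit of depth-scaled counts, here on TMM-scaled totals) in the P:C 0.25 samples, 301, 258 and 417 CPM at 0.4, 379, 246 and 261 CPM at 0.55, and 249.6, 193 and 232 CPM at 0.7. The means were 572 ± 186, 326 ± 81.9, 295 ± 72.6 and 225 ± 28.9 CPM (SD, n = 3 each). Each P:C 0.7 sample thus lay below each P:C 0.25 sample, while the sums of each pair of neighbouring diets overlapped. The Cpr members gave between 70.4% and 83.0% of this sum in the P:C 0.7 samples, 83.3% in P:C 0.4 replicate 3 and between 97.3% and 98.8% in the other 8 samples. Their sums had means of 564 ± 185 CPM at 0.25, 298 ± 47.8 at 0.4, 289 ± 72.6 at 0.55 and 174 ± 12.9 at 0.7. The 23 Twdl members ran the other way, with 6.35, 5.595 and 4.96 CPM in the P:C 0.25 samples, 4.64, 4.65 and 61.0 CPM at 0.4, 4.29, 4.70 and 5.43 CPM at 0.55 and 61.9, 26.8 and 38.9 CPM at 0.7. The lowest P:C 0.7 sample was above every sample of the 0.25 and 0.55 diets, and P:C 0.4 replicate 3 lay with the P:C 0.7 samples.

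**Figure D2:**
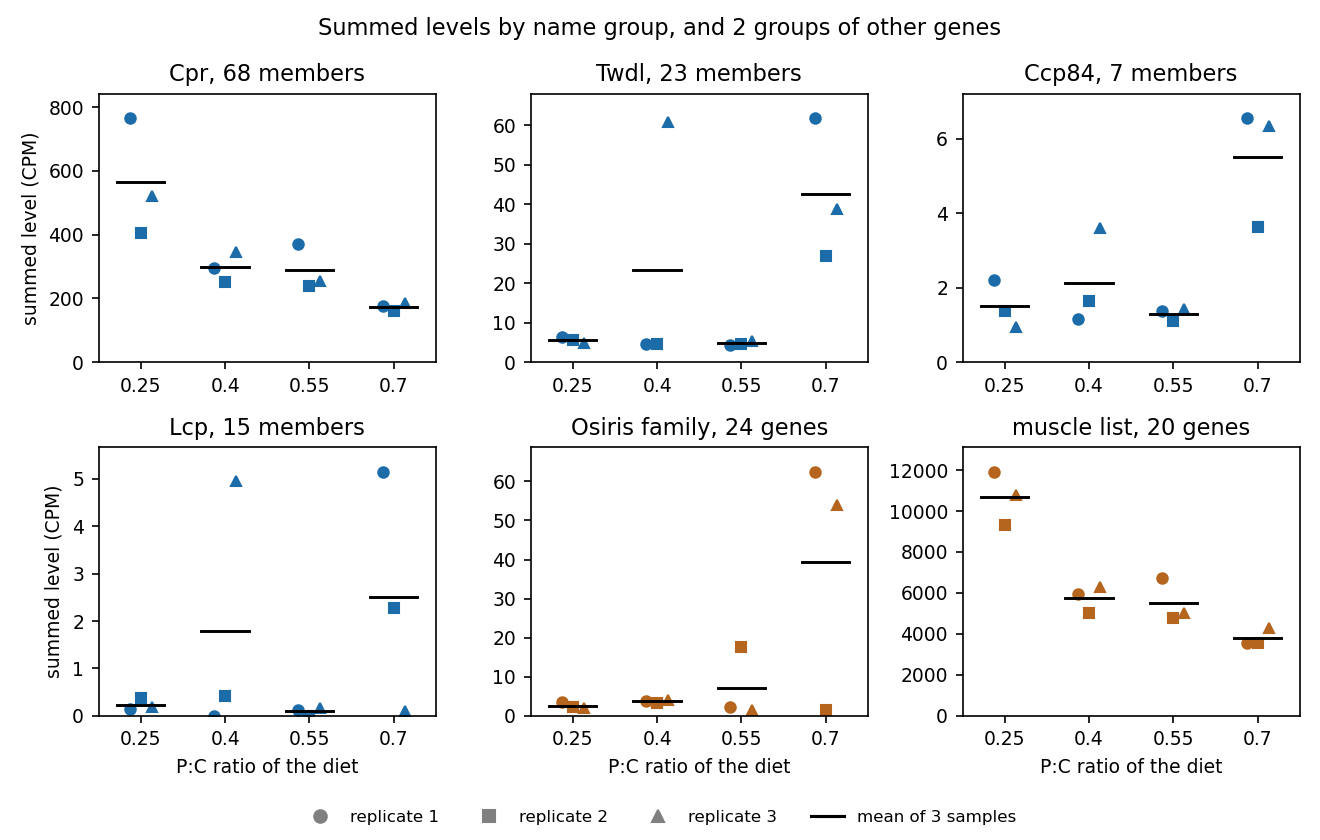
Summed level in CPM per sample, by P:C ratio of the diet, for 4 name groups of cuticle proteins (blue) and for the Osiris family and a list of muscle genes (brown). Symbols are replicates and bars are means of 3 samples. The Cpr sum averaged 174 CPM at P:C 0.7 and 564 CPM at P:C 0.25, and the Twdl sum was at least 26.8 CPM only in the P:C 0.7 samples and in P:C 0.4 replicate 3.

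Per kilobase of exon, the highest mean levels over the 12 samples belonged to Cpr49Ae (97.9 CPM per kb), Cpr49Ab (66.9), Cpr65Au (60.4), Cpr67B (31.8), Cpr92F (11.7) and Cpr62Bb (5.97). These are genes of the Rebers and Riddiford family. The order differed by diet. At P:C 0.7 the highest means were those of Cpr65Au (48.0 CPM per kb), Cpr49Ab (46.5) and Cpr49Ae (36.1), where Cpr49Ae had 184, Cpr49Ab 77.4 and Cpr65Au 77.2 CPM per kb at P:C 0.25. Cpr49Ae (2R 12402216 to 12405108, 3 exons) alone gave between 17.1% and 40.2% of the members' sum in a sample. Without it the members' sum averaged 353 ± 103 CPM at 0.25, 228 ± 56.6 at 0.4, 189 ± 32.3 at 0.55 and 182 ± 27.3 at 0.7 (SD, n = 3 each).

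In all, 5 comparisons were made across all transcripts with edgeR's quasi-likelihood test and Benjamini-Hochberg adjustment. Between 2 diets, calls needed an adjusted p under 0.05 together with a difference above 1.5-fold, and along the 4 diets at an adjusted p under 0.05 with no fold minimum. The members were selected on their names with results of these samples known, so their counts describe the families and test nothing about them as a set, and the share called among all transcripts is given beside them. The 3 comparisons with the P:C 0.4 diet share its samples, and P:C 0.7 against P:C 0.25 shares samples with the other comparisons.

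The widest contrast, P:C 0.7 against P:C 0.25, had the most changed members. Of 27 tested, 15 were lower at P:C 0.7, all of them Cpr, and 6 were higher, namely 4 Twdl members, Cpr65Ea and Ccp84Ag. Among all 9845 transcripts tested, 17.5% were called lower and 1.8% higher. The median log2 change was -0.96 over the 27 members and -0.003 over all transcripts. This median depends on which members pass the filter on low counts, and it was 1.05 over all members with a count when no filter was used.

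Cpr92F (3R 20669571 to 20672821) had the largest fall. Its level was 0.47, 0.86 and 0.38 CPM in the P:C 0.7 samples, against 115, 35.4 and 51.4 CPM in the P:C 0.25 samples. The 0.4 samples had 24.2, 3.28 and 11.3 CPM and the 0.55 samples 11.6, 0.63 and 6.55 CPM. The 2 outer diets did not overlap, while levels within the 0.4 and 0.55 diets spread widely. The log2 change of Cpr92F at P:C 0.7 against 0.25 was -6.77 ± 0.61 (SE) with an adjusted p of 3.1e-04 by edgeR.

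Cpr47Ea (2R 11251751 to 11253398) followed the same course. It had 0.31, 0.50 and 0.85 CPM at P:C 0.7 against 16.7, 9.82 and 10.01 CPM at P:C 0.25, with 4.38, 2.33 and 4.06 CPM at 0.4 and 3.28, 0.63 and 1.76 CPM at 0.55. Its log2 change at 0.7 against 0.25 was -4.37 ± 0.37 (SE, edgeR adjusted p = 2.9e-04). In Cpr47Ea, as in Cpr92F, every sample of the 0.55 and 0.7 diets lay below the lowest P:C 0.25 sample.

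Cpr97Ea and Cpr97Eb are neighbours on 3R between 27083130 and 27091130, and both were called lower. Cpr97Ea had 1 count in each P:C 0.7 sample against 14, 11 and 13 counts in the P:C 0.25 samples (log2 change -3.81 ± 0.54). With fewer than 3 counts in each P:C 0.7 sample, the size of this fall is poorly measured. Cpr97Eb had 1.41, 1.93 and 2.74 CPM at P:C 0.7 against 17.3, 5.22 and 11.3 CPM at P:C 0.25 (log2 change -2.44 ± 0.44). Neither gene's groups overlapped. Cpr92F, Cpr47Ea and Cpr97Ea reached the count limit of the filter in P:C 0.25 samples alone and not in any P:C 0.7 sample, so that members of this kind could enter the test only where they differ.

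Cpr100A (3R 30867521 to 30869184) had 2.03, 1.21 and 1.32 CPM at P:C 0.7 against 26.6, 12.1 and 12.8 CPM at P:C 0.25, a log2 change of -3.56 ± 0.39. Cpr76Bd (3L 19532743 to 19538289) had 1.56, 2.85 and 3.41 CPM at P:C 0.7 against 23.6, 11.7 and 14.4 CPM at P:C 0.25, a log2 change of -2.61 ± 0.33. The edgeR adjusted p was 5.5e-04 for Cpr100A and 0.001 for Cpr76Bd. In both genes all 3 samples of the 0.7 diet lay below the lowest of the 0.25 diet.

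The most abundant member fell as well, though less steeply. Cpr49Ae had 42.7, 40.2 and 45.3 CPM in the P:C 0.7 samples, against 309.8, 148 and 198 CPM in the P:C 0.25 samples. At 0.4 it had 105, 63.6 and 123 CPM and at 0.55 152, 71.4 and 93.9 CPM. The 3 samples of the 0.7 diet were close to each other and below all 9 others, and the 0.4 and 0.55 diets overlapped. Its log2 change at 0.7 against 0.25 was -2.37 ± 0.24 (edgeR adjusted p = 4.0e-04).

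Of the other abundant members, Cpr62Bb (3L 1832636 to 1835164) had a log2 change of -2.00 ± 0.23, Cpr67B (3L 9404797 to 9406174) of -1.06 ± 0.11, Cpr49Ab (2R 12378440 to 12379396) of -0.75 ± 0.22 and Cpr65Au (3L 6131242 to 6132109) of -0.71 ± 0.12. Cpr67B had 22.2, 21.6 and 22.4 CPM at P:C 0.7 against 50.5, 39.3 and 46.1 CPM at P:C 0.25. Cpr49Ab had 36.4, 33.8 and 48.6 CPM at P:C 0.7 against 82.2, 44.8 and 70.9 CPM at P:C 0.25. Cpr67B showed no overlap, whereas the highest P:C 0.7 sample of Cpr49Ab was above its lowest P:C 0.25 sample, and Cpr49Ab kept its call in 2 of 6 fits that each left out 1 sample. The remaining members called lower were Cpr62Bc, Cpr47Ee, Cpr73D and Cpr47Ef, with log2 changes between -2.33 and -0.94.

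**Figure D3:**
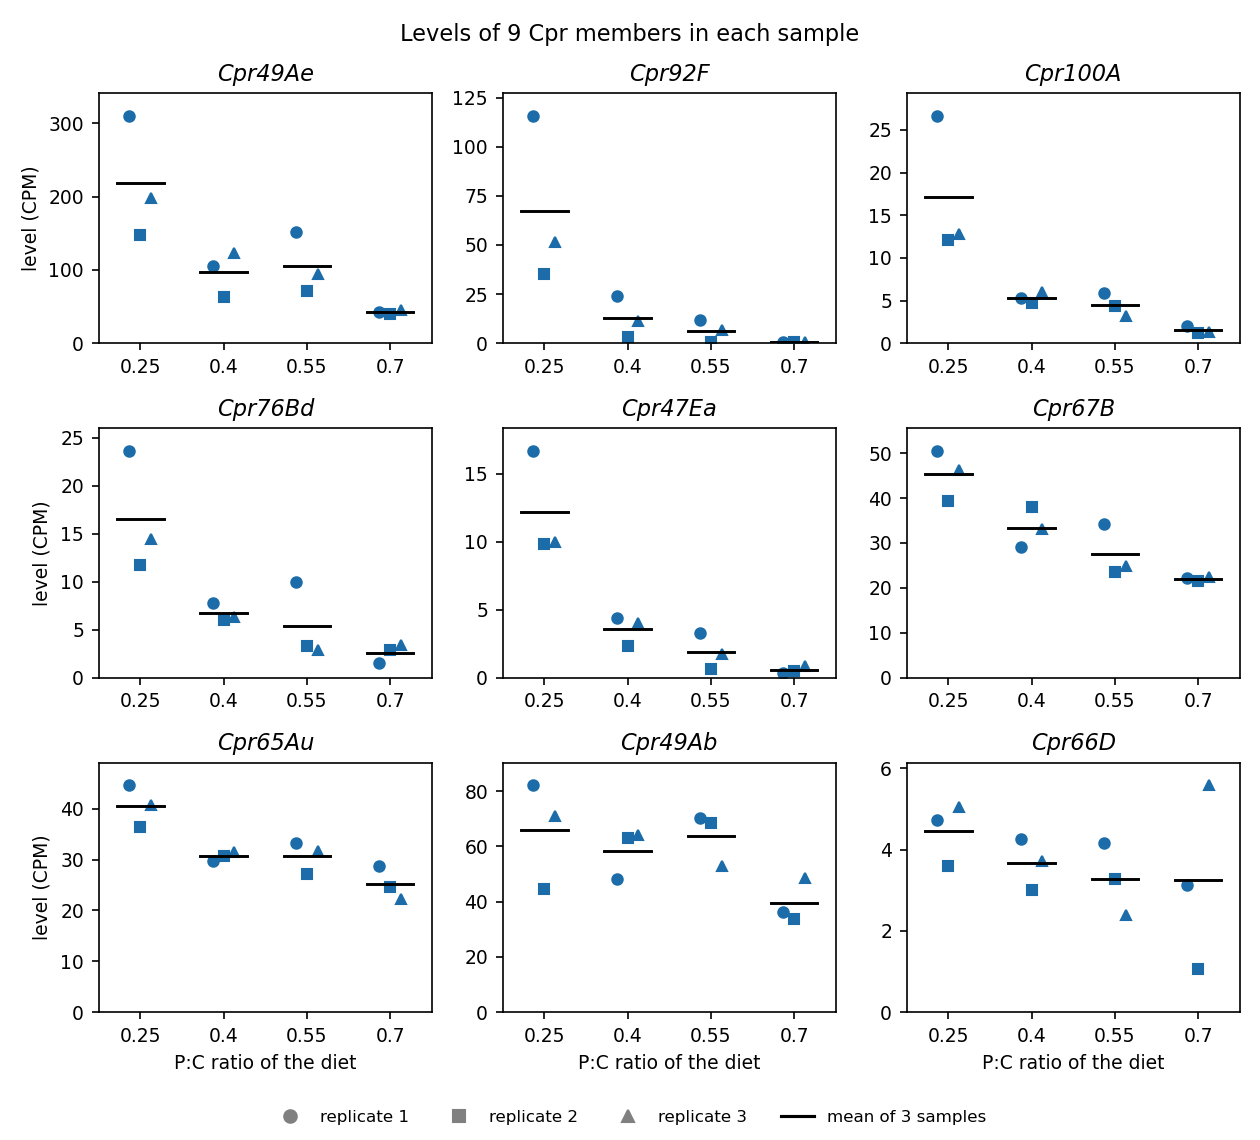
Level in CPM of 9 Cpr members in each of the 12 samples, by P:C ratio of the diet, with symbols for replicates and bars for means of 3 samples. All axes start at 0 and differ in scale. Cpr49Ae lay between 40.2 and 45.3 CPM in the P:C 0.7 samples and between 148 and 309.8 CPM in the P:C 0.25 samples, while both diets overlapped in Cpr66D.

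In this comparison 6 tested members were not called. Cpr66D and Cpr72Ec, 2 proteins known from the corneal lens of the eye, had log2 changes of -0.51 ± 0.50 (edgeR adjusted p = 0.43) and -0.96 ± 0.36 (adjusted p = 0.063). Cpr66D had 3.13, 1.07 and 5.58 CPM at P:C 0.7 against 4.73, 3.61 and 5.05 CPM at P:C 0.25, and the samples of the 0.7 diet spread beyond those of the 0.25 diet on both sides. Cpr51A had 2.501, 3.21 and 3.03 CPM at P:C 0.7 against 1.62, 2.24 and 2.34 CPM at P:C 0.25 (log2 change 0.47 ± 0.27, adjusted p = 0.18). TwdlE (2L 7857957 to 7860839), the Twdl member with the highest mean level, had 3.60, 1.93 and 3.41 CPM against 2.81, 4.85 and 2.90 CPM (log2 change -0.30 ± 0.35, adjusted p = 0.50). It differs from most of its family in having been seen at similar levels in all 12 samples, between 1.93 and 4.85 CPM. The errors of these genes leave room for changes of 1.5-fold. Cpr49Ag (adjusted p = 0.054) and TwdlG (adjusted p = 0.11) were the other members not called.

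Of the 6 members called higher at P:C 0.7, 5 were close to 0 on the P:C 0.25 diet and reached the filter's count limit in P:C 0.7 samples alone, so that they could enter the test only where they are higher. TwdlM (3R 26619118 to 26620224) had 48, 114 and 28 counts in the P:C 0.7 samples and no count in any P:C 0.25 sample. TwdlD (3R 26640025 to 26641054), in which a mutation changes the shape of the larval body, had 33, 54 and 64 counts at P:C 0.7 and none at P:C 0.25. Both genes lie in the run of 12 Twdl members on 3R, at its 2 ends. With 3 counts per library as the floor, TwdlM was at least 16.7-fold higher and TwdlD at least 13.7-fold higher at P:C 0.7 than at P:C 0.25 (edgeR adjusted p = 0.0026 and 6.5e-04).

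Cpr65Ea (3L 7086003 to 7086608) had 9, 35 and 25 counts at P:C 0.7 and none at P:C 0.25, at least 5.72-fold higher. TwdlW had 9, 15 and 18 counts at P:C 0.7 against 1, 0 and 0 counts at P:C 0.25. TwdlY, on the X chromosome, had 16, 36 and 18 counts against 1, 2 and 1 counts. From the pooled counts, TwdlW was 34.6-fold higher (95% exact counting interval 5.87 to 1397) and TwdlY 14.4-fold higher (5.38 to 54.3). Ccp84Ag (3R 6686728 to 6688039), the only Ccp84 member tested, had 2.35, 2.07 and 3.31 CPM at P:C 0.7 against 1.77, 1.12 and 0.84 CPM at P:C 0.25. Its groups did not overlap, but its adjusted p of 0.049 was lost in all 6 fits that left out 1 sample (log2 change 1.07 ± 0.37).

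**Figure D4:**
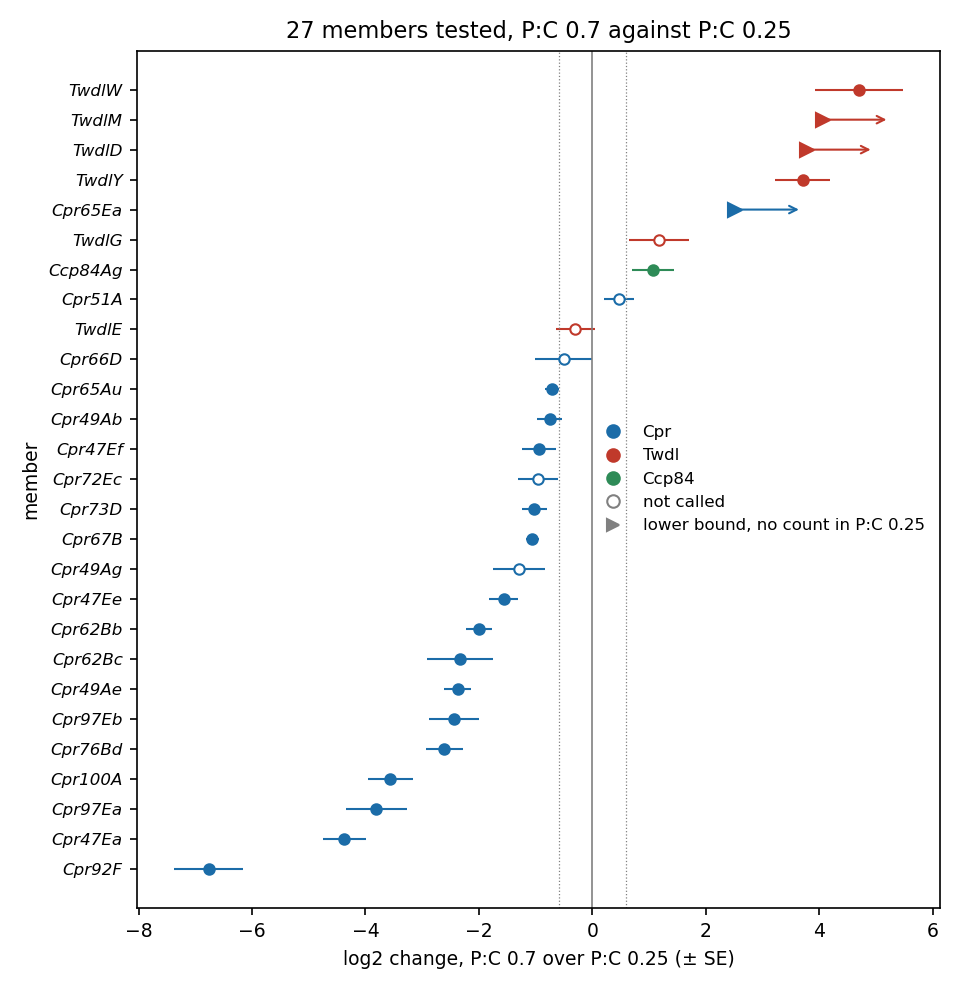
Log2 change of the 27 tested members at P:C 0.7 over P:C 0.25, with standard errors from edgeR. Filled symbols were called, open symbols were not, and dotted lines mark 1.5-fold. Triangles with arrows are lower bounds for TwdlM, TwdlD and Cpr65Ea, which had no count at P:C 0.25. The 15 members called lower are Cpr members, from -6.77 for Cpr92F to -0.71 for Cpr65Au.

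Against the control diet, the P:C 0.7 samples had 6 members lower and none higher of 29 tested. Among all 9705 transcripts, 3.82% were called lower and 0.577% higher. The 6 were Cpr92F (log2 change -4.40 ± 0.73), Cpr47Ea (-2.62 ± 0.42), Cpr100A (-1.86 ± 0.29), Cpr76Bd (-1.31 ± 0.28), Cpr49Ae (-1.20 ± 0.20) and Cpr67B (-0.60 ± 0.12), with edgeR adjusted p between 0.013 and 0.031. Cpr92F and Cpr47Ea reached the filter's count limit in P:C 0.4 samples alone and could enter this test only where they are lower. The shrunken DESeq2 estimate for Cpr92F was -0.13, against the -4.40 of edgeR. Cpr92F had 0.47, 0.86 and 0.38 CPM at P:C 0.7 against 24.2, 3.28 and 11.3 CPM at P:C 0.4. All 18 tested Cpr members had a negative log2 change, beside 4816 of all 9705 transcripts, and their median was -0.64. This rested in part on P:C 0.4 replicate 3, without which Cpr51A (0.33) and Cpr65Ea (7.32) had positive log2 changes. For none of the 9 tested Twdl members did the edgeR test make a call, and none had an unadjusted p under 0.05. The P:C 0.4 samples of TwdlM had 2, 0 and 160 counts and those of TwdlD 1, 0 and 99 counts, so replicate 3 was above each P:C 0.7 sample in both genes and the other replicates were near 0.

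Without P:C 0.4 replicate 3, none of the 6 was called, although their log2 changes were of like size, from -4.49 for Cpr92F to -0.61 for Cpr67B, with adjusted p between 0.052 and 0.12. In that fit 4 of 30 tested members were called higher at P:C 0.7, namely TwdlY, Cpr65Ea, TwdlD and TwdlM, with edgeR adjusted p between 0.016 and 0.044. These 4 had at most 2 counts in each remaining P:C 0.4 sample and could enter only where they are higher. Of all transcripts, 0.708% were called in either direction. Leaving out P:C 0.7 replicate 1 left 1 call, P:C 0.7 replicate 2 left 2, of which 1 was higher, and P:C 0.4 replicate 1 left 2.

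The P:C 0.25 samples had 1 member higher than in the control, Cpr47Ea, and none lower, of 19 tested. Of all 9743 transcripts, 0.616% were called higher and 0.0205% lower. Cpr47Ea had 16.7, 9.82 and 10.01 CPM at P:C 0.25 against 4.38, 2.33 and 4.06 CPM at P:C 0.4 (log2 change 1.74 ± 0.30, edgeR adjusted p = 0.048), and it kept the call in 1 of 6 fits that left out a sample. Of the 19 members, 16 had a positive log2 change and the median was 0.71, against -0.01 over all transcripts. Larger changes missed the threshold in Cpr92F (2.37 ± 0.60, adjusted p = 0.11) and smaller ones in Cpr100A (1.67 ± 0.32, adjusted p = 0.064) and Cpr62Bb (1.31 ± 0.24, adjusted p = 0.057). Cpr92F, Cpr100A and Cpr49Ae showed no overlap between these diets. Between no member and 8 members were called when single samples were left out, with 8 in the fit without P:C 0.25 replicate 2 and none in each of the other 5.

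The P:C 0.55 diet and the control did not separate the members. Of 20 tested, none was called by edgeR, none had an unadjusted p under 0.05 and DESeq2 called none either. Among all 9638 transcripts 0.0415% were called higher and 0% lower. The median log2 change of the members was -0.09, and the range ran from -1.19 (Cpr62Bc) to 0.44 (Cpr60D). Cpr49Ae had 152, 71.4 and 93.9 CPM at P:C 0.55 against 105, 63.6 and 123 CPM at P:C 0.4 (log2 change 0.12 ± 0.29).

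Along the 4 diets, 12 of 30 tested members fell with the P:C ratio and none rose, where 19.6% of the 9928 transcripts fell and 17.1% rose. A slope is given as the log2 change fitted over the whole range of the P:C ratio, 0.25 to 0.7. The smallest p belonged to Cpr47Ea (slope -4.20 ± 0.43, edgeR adjusted p = 1.4e-04), followed by Cpr100A (-3.25 ± 0.37), Cpr92F (-5.88 ± 0.74), Cpr67B (-1.02 ± 0.13), Cpr76Bd (-2.47 ± 0.40) and Cpr49Ae (-2.06 ± 0.35). The other 6 were Cpr97Eb, Cpr62Bb, Cpr65Au, Cpr62Bc, Cpr47Ee and Cpr73D. All 6 named slopes kept their call in each of the 12 fits that left out 1 sample. Slopes nearest to 0 among members above 1 CPM were those of Cpr51A (0.11 ± 0.51), TwdlE (-0.33 ± 0.30) and Cpr66D (-0.48 ± 0.39).

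The Twdl members did not pass this test as long as P:C 0.4 replicate 3 was in it. TwdlN had the smallest p of them, with a slope of 4.19 ± 1.68 and an adjusted p of 0.062. Without that library 10 of 32 tested members rose and 13 fell, and 31.4% of all transcripts were called. The 10 were TwdlB, TwdlD, TwdlF, TwdlL, TwdlM, TwdlN, TwdlW, TwdlY, Cpr65Ea and Ccp84Ac, 7 of which had no count at P:C 0.25. Each had at most 2 counts in every P:C 0.25 and 0.55 sample and in each remaining P:C 0.4 sample. They passed the filter through P:C 0.7 samples alone and could enter only where they are higher. Their slopes thus describe the P:C 0.7 diet against the other diets.

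The members seen on the P:C 0.7 diet but hardly on the P:C 0.25 and 0.55 diets formed a set of 22, picked from their counts and so given without a test. They had at least 3 counts in 2 or more P:C 0.7 samples and fewer than 3 in each P:C 0.25 and 0.55 sample. They comprised 11 Twdl, 7 Cpr, 3 Lcp and 1 Ccp84 member, and 20 of the 22 also had 3 counts in P:C 0.4 replicate 3, while none of them had 3 counts in the other P:C 0.4 samples. Summed over the set, the P:C 0.7 samples held 430, 398 and 412 counts and P:C 0.4 replicate 3 held 612, whereas the remaining 8 samples held between 0 and 9. Their abundance was low. The highest mean levels of the set at P:C 0.7 were those of TwdlF (12.6 CPM), TwdlM (6.10 CPM) and TwdlD (5.02 CPM). How many of all transcripts meet the same rule was not counted, so the pattern is not shown to be particular to these families.

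Within the P:C 0.7 diet the set was not uniform. TwdlF (3R 4247020 to 4248313) had 125, 1 and 193 counts in the P:C 0.7 samples, 9 in P:C 0.4 replicate 3 and at most 2 in any other. TwdlN had 43, 22 and 0 counts and TwdlB 15, 27 and 0. Lcp65Ag2, the Lcp member with the highest mean level, had 10, 17 and 0 counts, with 18 in P:C 0.4 replicate 3. Lcp65Ag1, Lcp65Ag2 and Lcp65Ag3 are near-identical copies, so their reads may have been split between them, but all 3 showed 0 counts in P:C 0.7 replicate 3. The 1 Edg member seen, Edg91, named for its dependence on the moulting hormone ecdysone, had at most 6 counts in a sample and showed no order by diet.

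Genes of the Osiris family, a family known from epithelia that build cuticle, were added to the lists after the TwdlF values were seen. Their 24 members summed to 3.55, 2.24 and 2.06 CPM in the P:C 0.25 samples, 3.74, 3.29 and 4.17 CPM at 0.4, 2.14, 17.7 and 1.44 CPM at 0.55 and 62.5, 1.498 and 54.0 CPM at 0.7. The highest Osiris sums and high TwdlF counts were thus found in P:C 0.7 replicates 1 and 3, and the Osiris sum was low in P:C 0.4 replicate 3. P:C 0.55 replicate 2 had an Osiris sum of 17.7 CPM but only 1 TwdlF count. All 3 Osiris genes that passed the filter over all diets (Osi6, Osi7 and Osi15) were called as rising along the P:C ratio, beside 17.1% of all transcripts. Their counts came mostly from P:C 0.7 replicates 1 and 3, through which they passed the filter, and P:C 0.7 replicate 2 had at most 0.071 CPM of each, so these calls describe those libraries.

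Other genes of the cuticle, and the tissue markers below, were taken from lists chosen with earlier results of these data known. Their counts describe these lists and test nothing about them as sets. Of 24 genes listed for other cuticle structure, 17 were in the count table and 9 were tested. Of these 9, 4 were lower and none higher at P:C 0.7 than at P:C 0.25. The gene dyl did not pass the filter and went the other way, with 5.78, 0.07 and 3.69 CPM at P:C 0.7 and 0 CPM in each P:C 0.25 sample. Among the tested genes the largest changes were those of Acp65Aa and Acp1, 2 cuticle proteins of the adult. Acp65Aa had 0.31, 0.43 and 0.19 CPM at P:C 0.7 against 52.9, 17.9 and 23.4 CPM at P:C 0.25 (log2 change -6.55), and Acp1 had 1.25, 0.64 and 2.65 CPM against 26.2, 15.04 and 13.8 CPM (log2 change -3.62). Neither gene overlapped between the outer diets. Acp65Aa, like Cpr92F, reached the filter's count limit in no P:C 0.7 sample, so it could enter the test only where it is lower. Of 18 tested genes of chitin assembly and turnover, 4 were lower and none higher, with the largest changes in serp and verm, chitin deacetylases known from the tracheae (log2 changes -1.47 and -1.21). Of 14 tested genes of pigmentation and sclerotization, 8 were lower and none higher, among them Ddc, dopa decarboxylase (-1.17), and e, which makes N-beta-alanyl dopamine (-1.15). Of all transcripts 17.5% were called lower, and 4 of 18 is near that share. The list medians were -0.76, -0.53 and -0.68, beside -0.96 for the members and -0.003 for all transcripts.

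Markers of some other tissues moved with the diets too. At P:C 0.7 against P:C 0.25, 17.5% of all transcripts were called lower and 1.8% higher, beside the counts that follow. Muscle genes summed to between 3543 and 4266 CPM at P:C 0.7 and between 9330 and 11930 CPM at P:C 0.25, and 19 of 20 were called lower (median log2 change -1.60). All 8 neuronal genes were called lower (median -1.17, summed range 259.9 to 313 CPM against 548 to 653 CPM). Germline genes of the ovary summed to between 6471 and 7415 CPM at P:C 0.7 and between 4785 and 5609 CPM at P:C 0.25, with 1 of 13 called higher and none lower (median 0.31). Eggshell (0 of 18) and yolk protein genes (0 of 3) had no calls by edgeR in this comparison, nor an unadjusted p under 0.05. Of 5 genes of the trachea, 4 were called lower (median -1.11), but serp, verm, pio and Gasp of this list are also in the cuticle lists above and are the same measurements. Of 7 genes listed for the fat body and oenocytes, only 2 were tested, AkhR and Lsd-1, and both were called lower. Lsp2, a storage protein of the fat body taken up below, was called higher (log2 change 1.13). Genes of the male accessory gland and testis summed to at most 12.5 CPM in a sample. The part of these tissues in the members' changes was not tested.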

How the data were processed

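The authors checked read quality with FastQC, trimmed with Trim Galore, aligned with HISAT2 (build BDGP6 per the labels) and made transcript counts in Seqmonk. The deposited values are raw counts for 15448 transcripts, without normalization. Strand use in counting and a sequencing batch are not given in the sources used here. Reads were not reprocessed.

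Diet and replicate were taken from the sample titles. Levels (CPM) are counts relative to TMM-scaled totals. Tests were run with edgeR 4.0.16 in R 4.3.3 (TMM, filterByExpr, quasi-likelihood) on the 6 samples of each pair of diets, and, for the slope, on all 12 samples against the numeric P:C ratio. Each SE is the log2 change over the root of its F statistic. Adjusted p-values are Benjamini-Hochberg values over all tested transcripts. The fits were tested on simulated counts in which only transcripts better counted than nearly all members were changed. That simulation does not cover calls on members near 0 or with a wide spread between replicates. The depth allows 3 counts to be seen at 0.214 to 0.479 CPM of the scaled libraries.

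The members and lists were chosen with earlier results of these data known. Members named are the called ones with the largest changes (at most 6 per direction and comparison), the 6 with the smallest slope p, the 6 highest per kilobase, the 3 flattest above 1 CPM and the highest of each name group. Members outside this rule, such as TwdlF, were named after their values were seen. Of the 116 members, 112 had the same coordinates in the Ensembl BDGP6 annotation, which gave exon lengths. Alternatives were DESeq2's size factors, library size alone, DESeq2 1.42.0 with apeglm 1.24.0, other count filters, all 12 samples in one fit, no fold minimum, the rank of the diet, the replicate number as a block and each sample left out. Replicate numbers did not pair the samples.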

Additional observations from a re-analysis of the deposited data

How the results depend on the processing

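Most Twdl, Lcp and Ccp84 values rest on low counts and on few libraries. Members called in P:C 0.25 against P:C 0.4 numbered 1, and 0 with DESeq2's size factors, 4 with library size alone, 4 with no filter, 7 with DESeq2, 2 with all 12 samples in one fit and 0 to 8 when single samples were left out. In P:C 0.55 against P:C 0.4 no fit called a member. In P:C 0.7 against P:C 0.4 the count was 6, and 3 with DESeq2 and 1 to 7 with single samples left out, turning to 4 higher and none lower without P:C 0.4 replicate 3. In P:C 0.7 against P:C 0.25 it was 21, and 10 with at least 10 counts required in every sample (10 of 14 tested, all lower) and 18 to 24 with samples left out. Along the diets it was 12, and 21 with no filter and 12 to 23 with samples left out, the highest without P:C 0.4 replicate 3. The rank of the diet gave 12 as well, since the diets are evenly spaced. With the replicate number as a replicate block, 5 members were called in P:C 0.25 against P:C 0.4, and 6, 21 and 12 in the other comparisons with calls. Deviations from the diet means correlated at 0.012 between samples with the same number (mean of 18 pairs, -0.34 to 0.34) and at -0.006 between other samples, so a shared number was not taken as a pairing. With no filter the median log2 change of the members turned positive at P:C 0.7 against P:C 0.25 (1.05) and along the diets (0.47), because members near 0 entered it. The DESeq2 medians were 0.01 and 0.30. The first is of estimates shrunken by apeglm and the second of unshrunken ones, so they are not on the same footing as each other or the first with edgeR's. Named members were refitted in the comparisons where the main fit called them. Of these 466 log2 changes, none changed sign and 47 missed the threshold. Log2 changes that were not called could turn, as in P:C 0.7 against P:C 0.4 without P:C 0.4 replicate 3. There Cpr51A went from -0.55 to 0.33, Cpr65Ea from -0.15 to 7.32 and TwdlM from -0.07 to 5.375. The log2 change of Cpr92F at P:C 0.7 against P:C 0.4 was -0.13 with DESeq2 (apeglm), against -4.40, and that of Ccp84Ag at P:C 0.7 against P:C 0.25 was 0.44, against 1.07.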

Other observations

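Genes of the hormonal control of moulting and eclosion stayed mostly within their spread between P:C 0.7 and P:C 0.25, with 2 of 19 tested called lower and none higher (edgeR), beside 17.5% of all transcripts lower and 1.8% higher. The larger change was that of Hr38, a nuclear receptor, which had 3.28, 2.43 and 3.03 CPM at P:C 0.7 against 5.76, 31.3 and 6.18 CPM at P:C 0.25, so that 1 library of the 0.25 diet was far above the others. Blimp-1, a repressor that answers to ecdysone, had 19.9, 18.7 and 26.7 CPM at P:C 0.7 against 36.6, 38.4 and 33.8 CPM at P:C 0.25 (log2 change -0.76).

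The larval serum proteins, storage proteins of the fat body, did not move together. Lsp2 had 1244, 806 and 1052 CPM at P:C 0.7 against 259, 342 and 789 CPM at P:C 0.25 (log2 change 1.13), and it was also called higher at P:C 0.55 than at P:C 0.4 (1.36). Lsp1gamma had 2.03, 2.57 and 3.502 CPM at P:C 0.7 against 16.0, 13.7 and 6.64 CPM at P:C 0.25 (log2 change -2.13).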
